A study of Drosophila melanogaster with 110 samples.

Results

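The subject here is the set of chromatin sites in Drosophila Kc167 cells at which Su(Hw) was found with both of its gypsy insulator partners, CP190 and Mod(mdg4). Kc167 is an established cell line of embryonic origin with features of plasmatocytes. Cells received dsRNA for 4 days, either against rump, which encodes the RNA-binding protein Rumpelstiltskin (rump RNAi), or against GFP, a sequence these cells do not carry (control). No other allele or agent distinguished the conditions, and both were treated with dsRNA in the same way. ChIP-seq peak lists covered 13 targets, with 3 rump RNAi and 3 control libraries for each of 12 proteins, and 2 and 2 for the histone mark H3K27me3. In ChIP-seq, DNA bound by a protein is recovered with an antibody and sequenced, and a peak is a stretch where its reads exceed those of the input chromatin. The lists hold called peaks only, so that a missing peak means a signal under the caller's threshold. Depletion of Rump cannot be read from these lists. The labels number the libraries of a condition as biological replicates without saying what was grown or treated separately, and the tests measure the spread between these libraries.

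Members were chosen from the peaks themselves. For each protein, peaks of its 6 lists that overlapped were merged, and regions with peaks in 3 or more lists were kept, which left 4505 of 5947 Su(Hw) regions, 2974 Mod(mdg4) regions and 8038 CP190 regions. A kept Su(Hw) region was a member when it overlapped both a kept Mod(mdg4) and a kept CP190 region by at least 1 bp. This gave 1762 members. The other 2743 Su(Hw) regions overlapped CP190 only (1568), Mod(mdg4) only (298) or neither (877). Occupancy of the 3 proteins therefore defines the members and is described below without being read as a finding.

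Insulators are DNA elements that limit contact between enhancers and promoters and can stop silent chromatin from spreading. In the gypsy retrotransposon the insulator is a cluster of binding sites for Su(Hw), which reads DNA through zinc fingers. An isoform of Mod(mdg4) joins Su(Hw) there, as does CP190. Both partners carry a BTB domain, through which proteins at distant sites can associate. CP190 is shared with other insulator proteins such as CTCF, a zinc finger protein with its own recognition sequence. Polycomb group (PcG) proteins silence developmental genes within domains of H3K27me3, recruited in part by the DNA-binding proteins Pho, Crol and Cg.

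DNA at the Su(Hw) summits of the members carried a recurrent word. Among 8-letter words within 50 bp of the summit, GCATACTT was the most frequent and lay at 37.0% of the members, against 32.8% of Su(Hw) regions with 1 partner, 22.1% with neither and 0.688% of CP190 regions without Su(Hw). The wider form GCNTACTT, chosen after these counts were seen and searched on both strands, lay at 43.6% of the members, 41.4% of regions with 1 partner and 37.6% of those with neither, against 1.15% of 26718 windows of the same length placed evenly along the arms. The shorter gypsy core TGCATA was found at 33.9% of the members, 33.1% of regions with 1 partner and 17.6% of regions with neither, against 6.64% of the even windows. Summits and word lay close together, with a median distance of 17.5 bp over the 909 members that held GCNTACTT within 250 bp.

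Sites from 5 of the 10 members with the strongest peaks of all 3 proteins, and from 1 member with strong CTCF (lncRNA:CR45035), are shown so that the word and its flanks can be read, 5′ to 3′ with the word in capitals. They come from the RefSeq copy of the Release 6 (dm6) assembly.
CG10019 (chr2L:3748908-3748949, plus strand): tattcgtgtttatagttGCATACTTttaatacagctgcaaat
CG15403 (chr2L:3131885-3131926, plus strand): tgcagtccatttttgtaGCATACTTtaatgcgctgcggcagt
Wdr62 (chr2L:1909800-1909841, minus strand): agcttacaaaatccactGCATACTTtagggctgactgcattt
LpR1 (chr3R:25754085-25754126, minus strand): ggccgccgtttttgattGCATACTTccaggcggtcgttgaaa
DAAM (chrX:1315548-1315589, plus strand): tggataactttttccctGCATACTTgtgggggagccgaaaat
lncRNA:CR45035 (chr3L:22215140-22215181, minus strand): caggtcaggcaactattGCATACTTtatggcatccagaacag
For comparison, these are GCNTACTT sites from Su(Hw) regions that ranked high and had neither partner. Among these regions, CG32718, which ranked first, held TGCATA only, and a second region near CG33667 held neither word.
lncRNA:CR44260 (chr3R:7718466-7718507, plus strand): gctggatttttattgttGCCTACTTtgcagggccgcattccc
lncRNA:CR45599 (chr3R:14971447-14971488, plus strand): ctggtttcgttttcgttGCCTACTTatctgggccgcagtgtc
Gr68a (chr3L:11758249-11758290, minus strand): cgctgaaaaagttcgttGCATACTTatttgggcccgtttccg
CG33667 (chrX:6466740-6466781, minus strand): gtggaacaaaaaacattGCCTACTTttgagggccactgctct
Both forms, GCATACTT and GCCTACTT, can be read in these sites. Strong peaks also occurred without the word: CG3104, CG13056 and SkpA held neither GCNTACTT nor TGCATA near the summit and toc held TGCATA only. Across all regions GCATACTT was the more frequent form in each class, including those with neither partner (22.1%). The form GCCTACTT lay at 6.81% of the members, 8.25% of regions with 1 partner and 15.1% of those with neither.

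Flanks of the core differed as well. Where TGCATAC occurred near the summit, it was followed by TTT at 69.7% of 479 member sites, 59.7% of 454 sites in regions with 1 partner and 33.1% of 118 sites in regions with neither. The 6th base after TGCATAC was G at 82.0% of member sites and 47.5% of sites with neither partner, and the 7th base was G at 86.0% and 84.7%. These shares describe bases under summits and were not tested. Words of other DNA-binding factors were counted in the same windows. CGATA, the BEAF-32 word, lay within 50 bp of the summit at 10.4% of the members and 37.9% of CP190 regions without Su(Hw), against 11.3% of the even windows. GAGAG, bound by GAGA factor, lay at 8.91% of the members against 11.5% of the even windows, and GCCAT, the Pho core, at 20.8% against 19.9%.

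The insulator between the genes yellow (y) and achaete (ac), known as 1A2, was among the members, and its sequence is shown because it is the best known natural site of this kind. The 240 bp around its Su(Hw) summit (chrX:361509-361748, plus strand) held 1 GCNTACTT, in the form GCCTACTT, and 1 TGCATA, in capitals:
1A2: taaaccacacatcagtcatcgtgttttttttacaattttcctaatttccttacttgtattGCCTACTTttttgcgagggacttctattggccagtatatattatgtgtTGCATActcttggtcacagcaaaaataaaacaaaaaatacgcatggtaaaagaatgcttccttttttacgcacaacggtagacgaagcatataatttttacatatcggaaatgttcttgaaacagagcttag
Su(Hw) fold enrichment over input at 1A2 was 12.3, 12.7 and 17.1 in rump RNAi libraries, against 10.9, 7.86 and 13.6 in control libraries. Mod(mdg4) gave 11.0, 11.6 and 20.3 in rump RNAi libraries and 11.4, 7.86 and 12.8 in control libraries. The ranges of the conditions overlapped for both proteins, and limma gave a log2 difference (rump RNAi minus control) of 0.33 with an SE of 0.20 for Su(Hw) (adjusted p = 0.918). CTCF had a peak at 1A2 in 4 of 6 lists, at 2.96, 3.61 and 2.4 in rump RNAi libraries and 2.64 in control replicate 2. These CTCF peaks were low, at percentiles of 3.48 to 30.2 within their lists.

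The member with the highest CTCF ranks, near NLaz, which encodes a lipocalin, held no GCNTACTT or TGCATA within 60 bp of its Su(Hw) summit. It is shown because it held instead 2 matches to AGNNGGCGC, a widened form of the CTCF core chosen after these bases were read, in capitals on the opposite strand (chr2L:1362384-1362503, plus strand):
NLaz: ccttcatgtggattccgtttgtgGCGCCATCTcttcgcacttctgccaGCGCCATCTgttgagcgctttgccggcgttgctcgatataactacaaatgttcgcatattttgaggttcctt
Su(Hw) peaks at NLaz were low, with a fold enrichment of 6.42 and 6.04 and no peak in rump RNAi replicates 1, 3 and 2, against 5.29, 6.44 and 6.64 in control libraries. CP190 was high, at 13.8, 14.2 and 13.7 in rump RNAi libraries and 12.5, 17.2 and 12.6 in control libraries. Along all members, AGNNGGCGC lay within 50 bp of the Su(Hw) summit at 5.62%, against 0.835% of the even windows. It lay at 2.79% of regions with 1 partner, 1.82% with neither and 4.58% of CP190 regions without Su(Hw). The CTCF core before widening, AGGNGGC, did not set the members apart. It lay at 6.41% of them, 7.02% of regions with 1 partner, 6.61% with neither and 3.93% of the even windows.

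Occupancy of the members was nearly complete for Su(Hw) and CP190 and less so for Mod(mdg4). CP190 had a peak in all 6 lists at 1712 members (97.2%), Su(Hw) at 1542 (87.5%) and Mod(mdg4) at 1135 (64.4%), and 1002 members (56.9%) had a peak in all 18 lists. The 1762 members had a median width of 850 bp. Just inside the rule were 190 members with Mod(mdg4) in exactly 3 lists, of which 156 had 1 rump RNAi and 2 control lists and 32 had the opposite. This split was not counted over all Mod(mdg4) regions, and the Mod(mdg4) lists differed in length, from 1734 to 5059 peaks. The first 3 of the 190 along the genome were Tspo, PGAP2 and snRNA:U1:21D, named like all regions here for the gene with the nearest transcription start. Their Mod(mdg4) fold enrichments were 2.87 to 4.78, 3.12 to 5.15 and 3.34 to 4.33 where a peak was called. Just outside were 235 regions with Su(Hw) and CP190 and Mod(mdg4) in 2 lists, such as ovm, CG42658 and CG31949. Their percentiles within the Mod(mdg4) lists were 37.8 and 76.6, 28.0 and 51.8, and 53.8 and 56.4.

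Summits of the 3 proteins coincided at the members. The median distance from the Su(Hw) summit ranged over libraries from 17 to 20 bp for Mod(mdg4) and from 19 to 22 bp for CP190. CTCF, where present, peaked 43 to 59 bp away and Cg 38 to 52 bp away. Crol peaked farther off, at 134, 167 and 181 bp in rump RNAi libraries and 90, 105 and 123 bp in control libraries. The Crol distances did not overlap between conditions. Those of Pho did not either, at 73, 110 and 78 bp in rump RNAi libraries and 71, 68 and 64 bp in control libraries. The Crol lists were also longer in rump RNAi libraries, with 9883 to 11117 peaks against 7214 to 8903. CP190 summits were as close or closer at Su(Hw) regions with CP190 only, with medians of 15 to 17 bp over libraries. For the other proteins, distances were not measured at other Su(Hw) regions. No test was made of any distance.

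**Figure D1:**
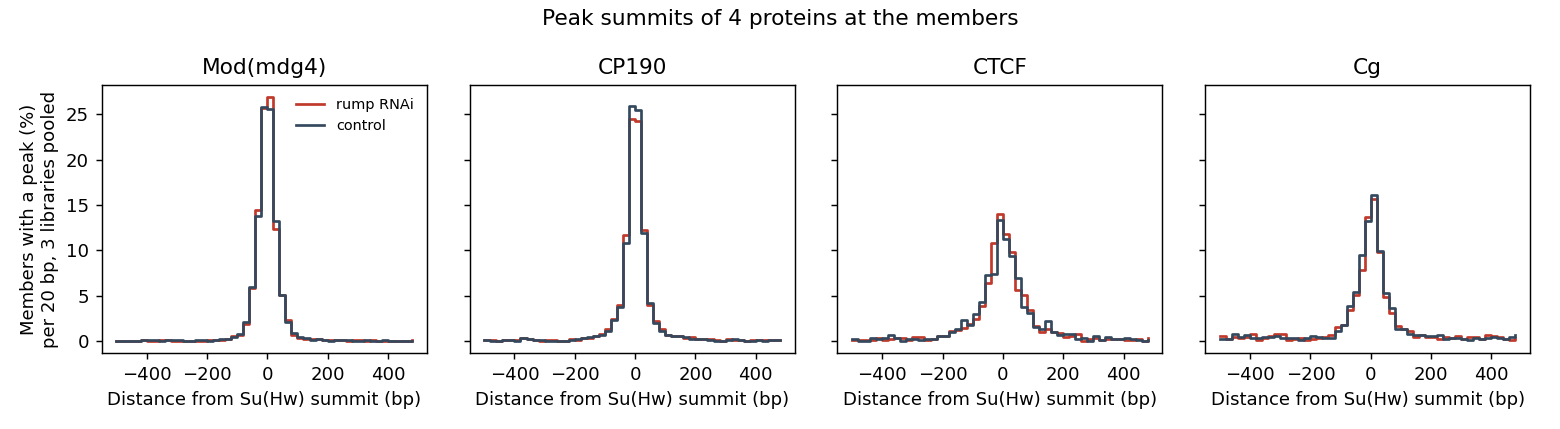
Distance of peak summits from the Su(Hw) summit of each member (x axis, bp), as the percent of members with a peak per 20 bp bin (y axis), 3 libraries pooled per condition. Mod(mdg4) and CP190 form narrow peaks at 0 in both conditions, and CTCF and Cg are broader.

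Members ranked high in the lists that chose them. Ranked by fold enrichment within a list, the median member stood between percentile 71.1 and 77.3 for Su(Hw), between 60.5 and 80.9 for Mod(mdg4) and between 76.8 and 81.0 for CP190. Su(Hw) regions with CP190 only stood between 44.4 and 55.5 in the Su(Hw) lists, those with neither partner between 29.3 and 39.3, and those with Mod(mdg4) only between 11.6 and 27.2. Over the 1002 members with all peaks, mean log2 fold enrichment of Su(Hw) correlated with that of Mod(mdg4) (Pearson r = 0.52, Spearman rho = 0.55) and of CP190 (r = 0.42, rho = 0.37). Mod(mdg4) and CP190 heights were unrelated across the same members (r = -0.03, rho = -0.01). These are correlations across sites within the same libraries. Per the labels, Su(Hw) and Mod(mdg4) shared their input libraries and CP190 had others.

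The 10 members whose lowest rank over the 18 lists was highest were CG15403, toc, CG3104, CG30377, LpR1, CG10019, CG13056, SkpA, DAAM and Wdr62. LpR1 encodes a lipophorin receptor, SkpA a subunit of SCF ubiquitin ligases, DAAM a formin that organizes actin, and toc a protein of microtubules. At CG15403 (chr2L:3131549-3132356) the Su(Hw) fold enrichment was 29.5, 24.9 and 29.8 in rump RNAi libraries, against 25.0, 30.9 and 29.8 in control libraries. Mod(mdg4) at the same site gave 24.7, 22.4 and 28.2 in rump RNAi libraries and 29.0, 19.3 and 29.8 in control libraries. The conditions overlapped in both. None of the 10 other targets had a peak at CG15403, LpR1 or CG13056 in any list. CG3104 had CTCF and Cg in all 6 lists, and CG30377 had Crol and Cg in all 6. CTCF was called in 5 lists at Wdr62, 2 at SkpA and 1 at CG10019.

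**Figure D2:**
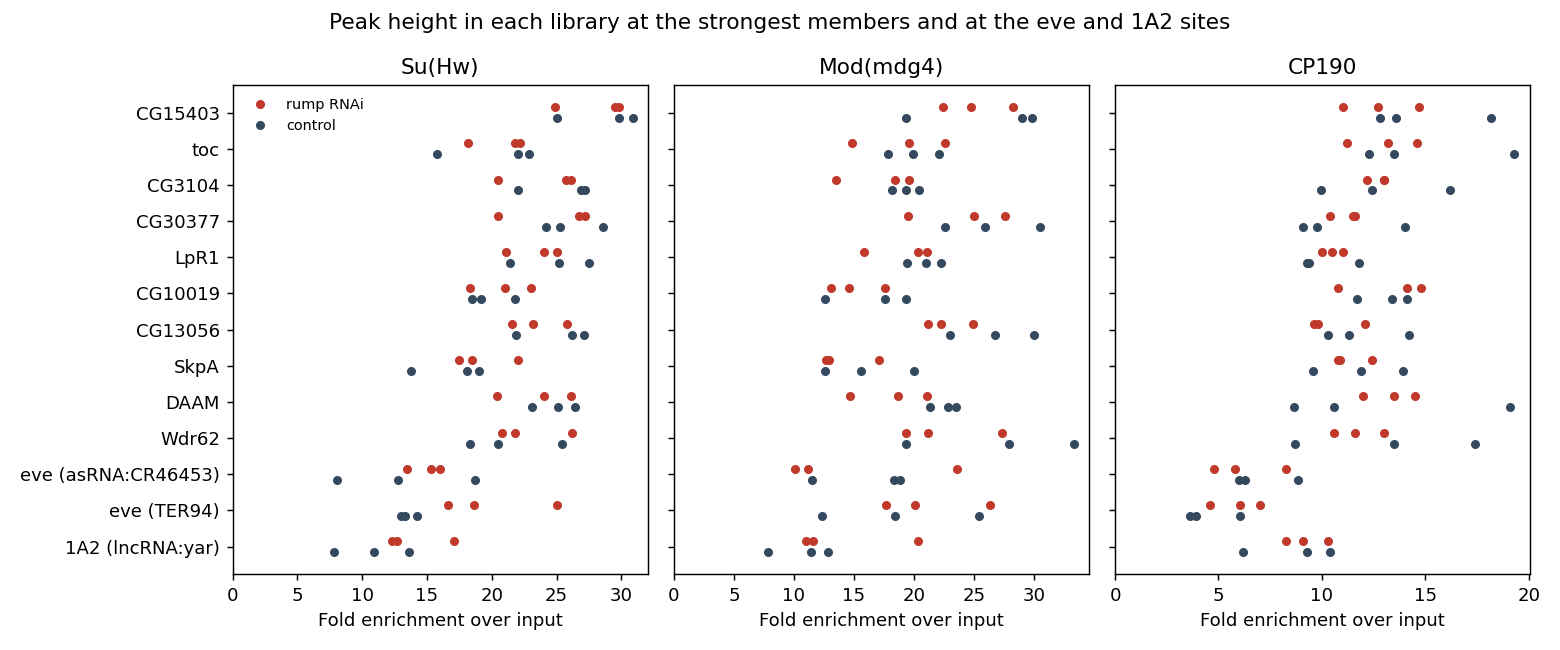
Fold enrichment over input (x axis) of Su(Hw), Mod(mdg4) and CP190 in each of the 6 libraries at the 10 strongest members, the 2 members of the eve domain and 1A2 (rows). At CG15403, Su(Hw) points lie between 24.9 and 29.8 in rump RNAi and between 25.0 and 30.9 in control libraries.

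The share of members with a peak was compared between conditions first. For Su(Hw), Mod(mdg4) and CP190 the members were chosen by peaks in these same lists, so their shares and ranks are given as a description with no test. Su(Hw) had a peak at 99.0, 91.3 and 90.4% of the members in rump RNAi libraries, against 98.6, 94.3 and 99.2% in control libraries. Mod(mdg4) gave 98.2, 69.2 and 86.5% in rump RNAi libraries and 99.8, 84.2 and 93.5% in control libraries. CP190 gave 99.5, 99.8 and 98.8% in rump RNAi libraries and 97.4, 99.3 and 99.4% in control libraries. The conditions overlapped for each protein, and replicate 1 was the highest of its condition for Mod(mdg4) in both. Between libraries of the same replicate number, Mod(mdg4) was lower in the rump RNAi library each time, while Su(Hw) and CP190 went both ways. The mean difference was -3.80 percentage points for Su(Hw), -7.87 for Mod(mdg4) and 0.66 for CP190. Without rump RNAi replicate 2 that for Mod(mdg4) was -0.142, and without rump RNAi replicate 1 it was -14.7. List lengths moved in the same direction, with 5182, 3828 and 4092 Su(Hw) peaks in rump RNAi libraries against 5225, 4195 and 5034 in control libraries, and with 4892, 1734 and 2401 Mod(mdg4) peaks against 5059, 2317 and 2917. With lists cut to equal length the difference was 0.511 points for Su(Hw), of opposite sign, and -1.63 for Mod(mdg4).

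The other 10 targets, which the choice of members did not use, were tested by two-sided permutation of the libraries, enumerated exactly. The adjustment was the planned one over 13 targets, so it also counted Su(Hw), Mod(mdg4) and CP190, whose p-values are not given. With 3 libraries against 3 the smallest possible p is 0.1, so no target could pass a threshold of 0.05. The targets that reached 0.1 were Cg and Psc, whose conditions did not overlap. Cg had a peak at 34.8 ± 4.27% of the members in rump RNAi and 39.4 ± 0.607% in control libraries (SD, n = 3 each; exact permutation p = 0.1, 0.65 adjusted over 13 targets). Other Su(Hw) regions were separate in the same direction, with Cg at 28.9, 27.5 and 27.5% of them in rump RNAi libraries and 29.5, 31.0 and 30.4% in control libraries. With lists of equal length the Cg difference at the members was -2.89 points in place of -4.65. Psc, a subunit of Polycomb repressive complex 1, had a peak at 1.00 ± 0.229% and 1.85 ± 0.360% (SD, n = 3 each; exact permutation p = 0.1, 0.65 adjusted). The Psc lists were shorter in rump RNAi libraries, with 322 to 398 peaks against 723 to 881 in control libraries, and with lists of equal length the difference was -0.151 points in place of -0.851. CTCF stood at 24.6, 32.9 and 19.3% of the members in rump RNAi libraries and at 15.9, 24.1 and 22.0% in control libraries, which overlapped.

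**Figure D3:**
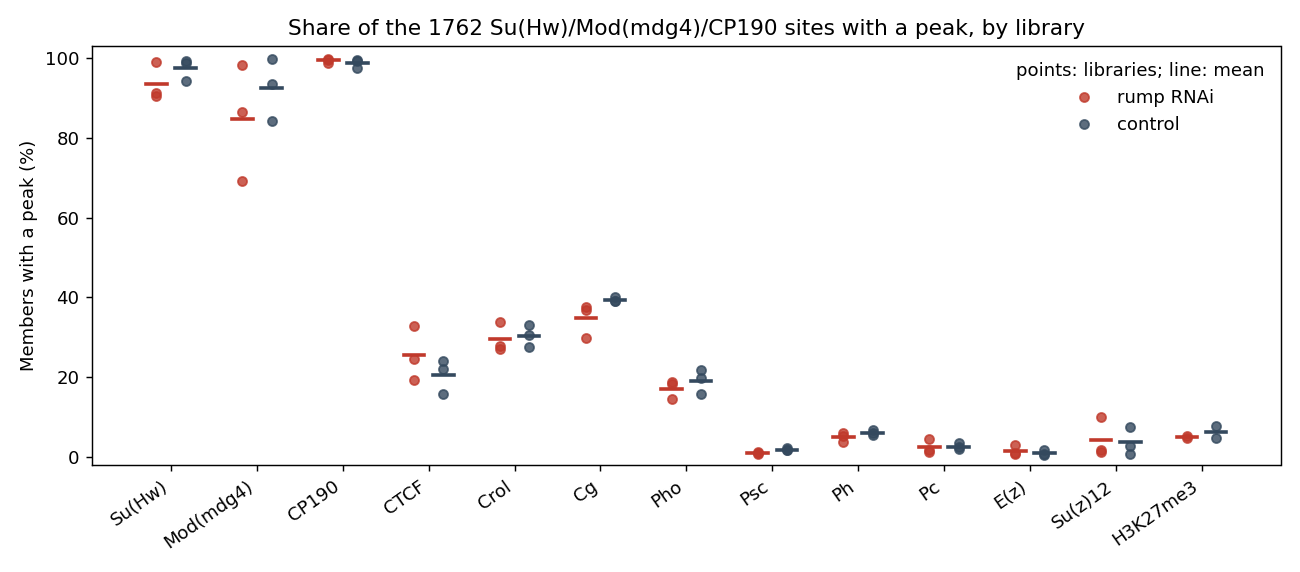
Percent of the 1762 members with a peak (y axis) for each of 13 targets (x axis), 1 point per library and a line at the mean, rump RNAi left of control. Su(Hw) and CP190 lie above 90% in all libraries, Mod(mdg4) spreads from 69.2 to 99.8%, and PcG proteins lie near the bottom.

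Ranks and heights were compared next. The median rank of the members within their lists was 73.9 ± 3.13 in rump RNAi and 75.7 ± 1.53 in control libraries for Su(Hw) (SD, n = 3 each), 67.3 ± 11.1 and 69.8 ± 9.62 for Mod(mdg4), and 78.7 ± 2.02 and 78.5 ± 1.73 for CP190 (n = 3 each). The conditions overlapped for each protein. Between libraries of the same replicate number, the Mod(mdg4) rank was lower in the rump RNAi library each time, while Su(Hw) and CP190 ranks went both ways. Peak height was then tested with limma on log2 fold enrichment over all regions with a peak in all 6 lists. Of member regions, 0 of 1542 for Su(Hw), 0 of 1151 for Mod(mdg4) and 0 of 1709 for CP190 passed an adjusted p of 0.05 (limma). The 1151 Mod(mdg4) regions were assigned to 1135 members and the 1709 CP190 regions to 1700, since some members overlapped more than 1 region. Over all regions tested, 0% were called higher and 0% lower for each protein. An unadjusted p under 0.05 was reached by 93 member regions for Su(Hw) (6.03%, against 5.83% of all 3430 regions), 27 for Mod(mdg4) (2.35%, against 2.10% of 1333) and 41 for CP190 (2.40%, against 2.36% of 7085). The median log2 difference of the members was -0.02, 0.02 and -0.01 for Su(Hw), Mod(mdg4) and CP190, with 8 in 10 members of Su(Hw) between -0.28 and 0.25.

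**Figure D4:**
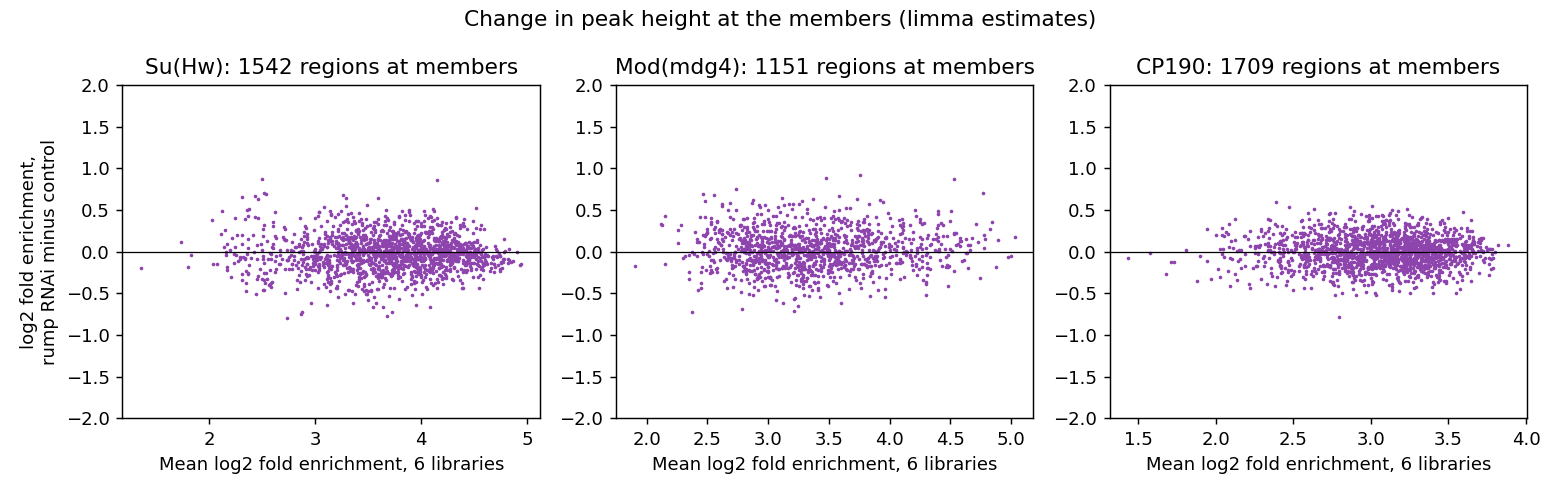
Difference in log2 fold enrichment, rump RNAi minus control (y axis), against mean log2 fold enrichment (x axis) at the member regions with a peak in all 6 lists, 1 point per region. Points scatter around 0 at all heights for Su(Hw), Mod(mdg4) and CP190.

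Few heights were separate between conditions. For Su(Hw), 4.09% of member regions were higher in every rump RNAi library, against 5.22% of all regions, and 2.08% were lower, against 1.95%. For Mod(mdg4) the members gave 1.22% higher, against 1.13% of all regions, and 5.21% lower, against 4.5%. For CP190 they gave 2.40% higher, against 2.99%, and 1.99% lower, against 3.3%.

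Complete loss or gain of a peak was rare. Su(Hw) was present in all control and absent from all rump RNAi lists at 12 members (0.681%), against 1.2% of all 4505 Su(Hw) regions, and gained at 0 members, against 0% of regions. Mod(mdg4) was lost at 2 members, Rph and aus, against 0.235% of its regions, and gained at 0, against 0%. CP190 was neither lost nor gained at any member, against 0.162% and 0.199% of its regions. The 10 lost members with the highest ranks, all for Su(Hw), were ATPsynB, Sos, CG2202, CG13077, CoRest, RpLP2, ND-18, CG11122, Tpi and GCS1. Peaks there were low in control cells. ATPsynB, which encodes a subunit of the mitochondrial ATP synthase and ranked first, reached 4.26, 4.64 and 4.22 in control libraries, and no peak of the 10 exceeded 5.23. Without rump RNAi replicate 1, whose lists reached the lowest q-value limit of that condition, 47 members were lost for Su(Hw) (2.67%), against 4.17% of its regions, and 55 for Mod(mdg4) (3.12%), against 3.7% of its regions. In lists cut to equal length, 0 members were lost and 3 gained for Su(Hw).

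At the eve domain, whose border element Homie lies before TER94 and is paired with NHomie at the other end, 2 members were found, 1 near each element. At TER94 (chr2R:9988347-9989290), which encodes a AAA ATPase, Su(Hw) fold enrichment was 25.0, 16.6 and 18.6 in rump RNAi libraries, against 13.3, 13.0 and 14.2 in control libraries. The conditions did not overlap, yet limma gave a log2 difference of 0.48 with an SE of 0.19 (p = 0.0319, adjusted p = 0.835). CP190 at TER94 was 4.57, 7.03 and 6.03 in rump RNAi libraries and 3.64, 6.05 and 3.93 in control libraries, which overlapped. At asRNA:CR46453 (chr2R:9972285-9973200), on the NHomie side, Su(Hw) was 16.0, 13.5 and 15.3 in rump RNAi libraries and 8.05, 18.7 and 12.8 in control libraries, which overlapped. The 2 members differed in company. Crol, Cg, Pho and Ph had a peak at TER94 in all 6 lists, whereas Crol and Cg had a peak at asRNA:CR46453 in 1 list each and Pho and Ph in none.

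Other proteins at the members were compared with the remaining Su(Hw) regions within 250 bp of the Su(Hw) summit, for the 10 targets that the choice of members did not use. CTCF lay at 22.4 ± 5.82% of the members and 2.02 ± 0.680% of other Su(Hw) regions (SD over 6 libraries). It was higher at the members in 6 of 6 libraries (exact two-sided sign-flip permutation test, p = 0.0312, the smallest 6 libraries allow, adjusted p = 0.039 over 10 targets). Cg, a zinc finger protein that recruits PcG proteins, was also more frequent, at 34.4 ± 4.13% and 27.9 ± 1.5% (exact permutation p = 0.0312, adjusted 0.039, 6 of 6 libraries). Crol lay at 25.6 ± 3.01% and 23.1 ± 1.2% and was higher at the members in 4 of 6 libraries (exact permutation p = 0.125).

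PcG proteins were less frequent at the members than at all other Su(Hw) regions pooled. Ph, a subunit of Polycomb repressive complex 1, lay at 4.4 ± 0.778% of the members and 13.1 ± 1.14% of other Su(Hw) regions. Su(z)12, a subunit of Polycomb repressive complex 2, lay at 2.95 ± 2.73% and 8.86 ± 5.97%. Pho lay at 15.6 ± 2.83% and 18.6 ± 0.714%, Psc at 1.21 ± 0.413% and 3.19 ± 2.25%, Pc at 2.34 ± 1.15% and 3.29 ± 1.19%, and E(z) at 1.20 ± 0.948% and 2.24 ± 1.73%. Each of these 6 was lower at the members in 6 of 6 libraries (exact permutation p = 0.0312, adjusted 0.039). H3K27me3 covered 5.22 ± 1.38% of the members and 6.23 ± 0.893% of other Su(Hw) regions, lower in 4 of 4 libraries (exact permutation p = 0.125, the smallest 4 libraries allow).

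This difference in PcG proteins turned round with the class of region set against the members. Su(Hw) regions with Mod(mdg4) only, 298 in number, carried Crol at 99.2%, Pho at 98.4%, Cg at 97.5% and Ph at 82.6% on average. Regions with CP190 only carried Crol at 8.86%, Pho at 3.99%, Cg at 15.8% and Ph at 0.861%. Against regions with CP190 only, a comparison added after the data were seen, the members were higher in every library for each of the 9 proteins and for H3K27me3. The difference was 19.5 percentage points for CTCF, 11.6 for Pho and 3.54 for Ph (exact permutation p = 0.0312, adjusted 0.0347). Against regions with neither partner the members were lower in Ph by -7.10 points and higher in CTCF by 21.9 points, each in every library. The unadjusted p was the smallest these libraries allow (exact sign-flip permutation, adjusted p = 0.0521 for both).

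**Figure D5:**
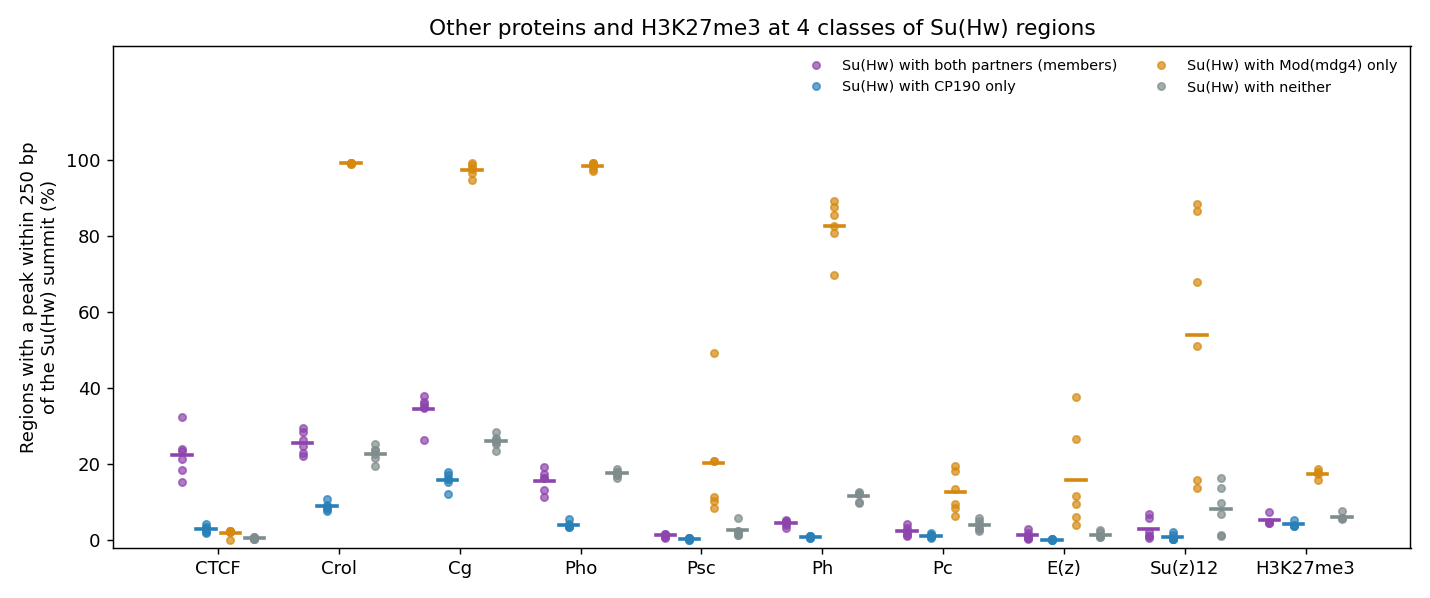
Percent of Su(Hw) regions with a peak within 250 bp of the Su(Hw) summit (y axis) for 10 targets (x axis), in the members and in Su(Hw) regions with CP190 only, Mod(mdg4) only or neither, 1 point per library and a line at the mean. CTCF is most frequent at the members (22.4%), and Crol, Cg, Pho and Ph average 82.6% or more in regions with Mod(mdg4) only.

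Members with CTCF in all lists and in no list differed in the other readouts, which are described here without a test. CTCF had a peak in all 6 lists at 274 members (15.6%), in no list at 1170 (66.4%) and in 1 to 5 lists at 318 (18%). In the Su(Hw) lists, members with CTCF in all lists ranked at a median percentile of 49.8 to 61.1. Those with CTCF in 1 to 5 lists ranked at 75.7 to 79.4 and those with CTCF in no list at 71.3 to 79.2. GCNTACTT lay within 50 bp of the Su(Hw) summit at 21.2% of the members with CTCF in all 6 lists and 50.1% of those with CTCF in no list. The CTCF word AGNNGGCGC lay at 27.4% and 1.03%. CTCF peaks at members were of modest height, with a median percentile of 26.7 to 43.9 within the CTCF lists. At the CTCF summits, AGNNGGCGC lay within 50 bp at 33.7% of 276 regions in all 6 lists at members and 50.8% of 866 such regions elsewhere. Apart from NLaz, the members with the highest CTCF ranks were mir-9385 and lncRNA:CR45035. At mir-9385, Su(Hw) was 11.7, 11.3 and 14.7 in rump RNAi libraries and 7.99, 12.7 and 13.6 in control libraries.

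Strength of Su(Hw) and sequence varied together among the members. When members were divided into 4 equal groups by mean Su(Hw) rank, GCNTACTT lay at 12.0, 46.6, 57.7 and 58.3% of them from the weakest to the strongest group. CTCF in all lists was found at 32.4, 8.86, 11.4 and 9.52% of the same groups. The weakest group was also closest to genes, with 30.4% of it within 200 bp of a transcription start, against 7.71% of the strongest. The 254 members at starts had GCNTACTT at 25.6% and ranked at 51.5 to 63.2 in the Su(Hw) lists, while the 1508 members away from starts had it at 46.7% and ranked at 72.3 to 79.2.

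Positions relative to genes are given as shares, with no test. Within 200 bp of an annotated transcription start were 254 members (14.4%), against 5.91% of other Su(Hw) regions, made up of 11.7% with Mod(mdg4) only, 4.53% with CP190 only and 6.39% with neither. Introns held 34.4% of the members and 48.5% of other Su(Hw) regions, exons 14.1% and 19.1%, and intergenic sequence 37.0% and 26.5%. The members numbered 10 of 11 Su(Hw) regions on chromosome 4 and 35.5 to 43.0% of those on the other arms. The median distance to the nearest other member was 16000 bp, and 377 members (21.4%) had another within 5 kb. A summit in an annotated transposable element was found at 4 members (0.227%), against 0.255% of other Su(Hw) regions. Reads with a mapping quality under 20 had been discarded, and the part of this in the count was not tested.

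H3K27me3 domain ends lay within 2 kb of few members. The share was 3.35 and 3.63% of the members in rump RNAi libraries and 2.89 and 4.6% in control libraries, while other Su(Hw) regions had 2.52 and 2.26% in rump RNAi libraries and 2.04 and 3.57% in control libraries. The members were higher by 1.02 percentage points on average, in 4 of 4 libraries (exact sign-flip permutation p = 0.125, the smallest 4 libraries allow). Of 686 and 642 domain ends in rump RNAi libraries, 54 and 62 had a member within 2 kb, and of 592 and 904 in control libraries, 49 and 80.

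Genes of insulator proteins held members at about the share of all genes. Of 26 such genes, 3 (11.5%) had a member in the gene or the 2 kb upstream, against 12.3% of all 13945 protein-coding genes. The gene su(Hw) itself was one of them, with a member at chr3R:14307529-14308777. Su(Hw) fold enrichment there was 26.2, 24.0 and 22.7 in rump RNAi libraries, against 11.9, 18.4 and 27.8 in control libraries, which overlapped. Mod(mdg4) at su(Hw) was 26.7, 25.6 and 27.5 in rump RNAi libraries and 21.1, 32.5 and 27.1 in control libraries. The others were shep, which encodes an RNA-binding protein that acts on gypsy insulators in the nervous system, and cg, which encodes Cg. At shep Mod(mdg4) had a peak in 3 of 6 lists, of 4.67 and 5.93 in 2 rump RNAi libraries and 3.43 in 1 control library.

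Of the 8 Hox genes, 3 had members (37.5%), against 12.3% of all protein-coding genes. Other Su(Hw) regions lay at 25.0% of the Hox genes, against 10.7% of all. The Hox genes had a median length of 30563 bp against 2166 bp, and the part of length was not tested. The site in Antp, near lncRNA:CR43252 (chr3R:6911900-6912903), was strong, with Su(Hw) at 19.7, 20.5 and 17.4 in rump RNAi libraries and 16.4, 16.0 and 23.3 in control libraries, and it had CTCF, Cg, Pho, Psc, Ph, Pc, E(z) and Su(z)12 in all 6 lists and H3K27me3 in all 4. The site in Abd-B was weak in Su(Hw), with peaks of 4.75 and 5.32 in 2 rump RNAi libraries and 4.62 in 1 control library, and had CTCF in all 6 lists. At pb, 2 members lay side by side near Ccp84Aa. The stronger had Su(Hw) at 11.2, 9.04 and 9.49 in rump RNAi libraries and 11.3, 16.2 and 16.7 in control libraries, which did not overlap, and limma gave a log2 difference of -0.62 with an SE of 0.16 (adjusted p = 0.835). Its Mod(mdg4) peaks were called in 1 rump RNAi library (3.69) and 2 control libraries (4.86 and 5.99).

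Other gene lists held members in 9 of 18 ecdysone response genes, 9 of 20 neuronal genes, 4 of 41 PcG target genes, 4 of 16 hemocyte genes and 0 of 5 genes of the achaete-scute complex. Members thus lay at 50.0% of ecdysone and 45.0% of neuronal genes, against 12.3% of all protein-coding genes. Other Su(Hw) regions lay at 55.6% and 65.0% of the same lists, against 10.7% of all protein-coding genes. PcG target genes had members at 9.76% and other Su(Hw) regions at 19.5%, and hemocyte genes had 25.0% and 25.0%. Ecdysone response genes with members included EcR, the hormone receptor, with 2, Eip74EF with 3, and br with 1. Neuronal genes included ChAT, the choline acetyltransferase, with 2, and fru with 1. Hemocyte genes included Pxn, a matrix peroxidase, with 3, and srp, a GATA factor of blood cells, with 1. Listed genes were long, with medians of 36624 bp for the ecdysone and 32385 bp for the neuronal list against 2166 bp for all protein-coding genes, and the part of length in these counts was not tested.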

How the data were processed

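The deposited files are MACS2 2.2.7.1 peak lists that the authors called on each library against its input, after trimming (Trim Galore 0.6.7), alignment to dm6 (Bowtie2 2.5.3) and removal of low-quality, rRNA and duplicate reads. Per the labels SAMtools was version 1.12. The deposited fold enrichment is a ratio over input at the summit, or a mean over each peak where broad peaks were called (Pc, H3K27me3). The authors' -log10 p and -log10 q and the score, a whole number, come from the same run. Replicate 1 lists of Mod(mdg4) and Su(Hw) reach down to a -log10 q of 2.02 to 2.28, all others to 4.03 at the lowest. Depth was not analysed here. Of 110 samples, 76 have peak lists; 17 control inputs and 17 inputs with conflicting labels were not used.

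Peak names inside the Psc, E(z) and Su(z)12 lists carry other replicate numbers than the labels, alike in both conditions, and the labels were followed. Regions, members and tests are as given in the text. Tests that had been planned on the share and rank of Su(Hw), Mod(mdg4) and CP190 at the members are not reported, because these lists chose the members. Fold enrichment was ranked within lists as percentiles, and the highest peak of a library in a region was used. limma 3.58.1 (R 4.3.3) was run on log2 fold enrichment with libraries centred on their medians and p adjusted by Benjamini-Hochberg, and was tested on simulated data. Permutations were enumerated in Python 3.11.15 (pandas 2.3.3, numpy 2.4.6), and correlations ran in scipy 1.17.1. Plots were made in matplotlib 3.10.9, and gene positions came from Ensembl. Members and gene lists were chosen with earlier results of these data known. Named regions are the 10 members with the highest lowest rank over 18 lists, lost members (10 by rank), members at the eve domain, 1A2, insulator, achaete-scute and Hox genes, the 3 with the highest CTCF ranks, and those beside the threshold. Same-numbered libraries were compared by their deviations from the condition mean. For none of the 4 insulator proteins did every pair correlate above 0.1, so numbers were not treated as pairs. For Mod(mdg4), r was 0.23 between replicates 1 and 0.48 between replicates 3, with no correlation between replicates 2. Between Mod(mdg4) libraries of unlike number, r ranged from -0.5 to 0.36. Some shared structure by number remains possible for this protein. Alternatives changed the threshold, list length, overlap, comparison set, scaling and libraries.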

Additional observations from a re-analysis of the deposited data

How the results depend on the processing

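With lists cut to equal length the rule gave 1251 members, and, over the original members, the difference in the share with a peak (rump RNAi minus control, percentage points) reversed for Su(Hw) (0.511), CTCF (-1.72) and Ph (0.378). Then 3 members gained and 0 lost Su(Hw), 1 gained and 3 lost Mod(mdg4), and 1 gained CP190. Counting summits inside members reversed CP190 (-0.132) and Pc (0.114). At a -log10 q of 5 or more the rule gave 1739 members, and 1 of the original members lost Mod(mdg4). Members numbered 1336 with a 50% overlap and 1259 with 5 lists. TGCATA lay at 40.5% of members within 100 bp and 52.5% within 250 bp.

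Against regions with neither partner, CTCF (21.9), Cg (8.35), Psc (-1.34), Ph (-7.1), Pc (-1.58) and Su(z)12 (-5.22) kept their direction in every library. Their unadjusted p stayed at the smallest value 6 libraries allow (exact sign-flip permutation, adjusted p = 0.0521). They missed the threshold only through the adjustment, since fewer targets reached that value. Pho (-1.91) and E(z) (-0.205) did not keep one direction in every library (adjusted p = 0.125). Over whole regions Crol passed the threshold (4.88) and Pho did not (-1.64). Against CP190 only, a set added after seeing the data, Crol passed (16.8), and Pho (11.6), Psc (0.892), Ph (3.54), Pc (1.16), E(z) (1.08), Su(z)12 (2.25) and H3K27me3 (1.06) reversed.

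Leaving out 1 library at a time gave share differences of -6.51 to -2.22 for Su(Hw), -14.7 to -0.142 for Mod(mdg4), 0.0284 to 1.02 for CP190, 1.32 to 8.13 for CTCF (lowest without rump RNAi replicate 2), -6.05 to -2.19 for Cg (smallest without rump RNAi replicate 2), -3.61 to -0.662 for Pho, -1.54 to -0.35 for Ph, -0.974 to -0.643 for Psc, -2.97 to 0.463 for Crol, -1.15 to 0.463 for Pc, -0.151 to 1.04 for E(z), -2.19 to 2.55 for Su(z)12 and -2.67 to 0.397 for H3K27me3, and rank differences of -3.4 to -0.29 for Su(Hw), -8.87 to 3.08 for Mod(mdg4) and -0.953 to 1.11 for CP190. Member differences kept their sign, at 18.6 to 21.7 for CTCF, 6.02 to 7.63 for Cg, -3.41 to -2.17 for Pho, -2.31 to -1.2 for Psc, -8.9 to -8.65 for Ph, -1 to -0.886 for Pc, -1.19 to -0.803 for E(z) and -6.86 to -5.3 for Su(z)12, and with 5 libraries none can pass. Lost members numbered 12 to 47 for Su(Hw) and 2 to 55 for Mod(mdg4), both highest without rump RNAi replicate 1, and 5 for Mod(mdg4) without rump RNAi replicate 3. Gained members numbered 0 to 1 for Su(Hw), highest without control replicate 1 or 3, 0 to 2 for Mod(mdg4), without control replicate 1, and 0 to 1 for CP190, without control replicate 2. With the replicate number as a block (replicate block), 0 members passed limma. The share differences stayed at -3.8 for Su(Hw), -7.87 for Mod(mdg4) and 0.662 for CP190, which equal numbers of libraries fix in advance. A sign-flip permutation over 3 pairs allows no p under 0.25, so no call on shares or ranks could change. Differences under the spread between libraries cannot be seen in lists that hold called peaks only.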
